A study of Homo sapiens
Mus musculus and Mus musculus and Homo sapiens with 3 samples.

Results

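The genes described here are 49 components of the kinetochore, the mitotic spindle and the machinery that times chromosome segregation, out of 15477 gene symbols found in every count table. They were taken from a list of names that includes genes already known, from earlier results of these data, to persist in neurons of 1 species, so their levels in neurons are given as a description with no test. Human and mouse pluripotent stem cells were differentiated into motor neurons as embryoid bodies, and single cells were profiled by droplet 3' RNA sequencing during the period of neurogenesis. Human cultures were sampled every 48 h and mouse cultures every 24 h, and the count tables do not give the sampling time of a cell. Human replicate 1 was the NCRM1 line and human replicate 2 the RUES1 line, which the labels call human iPS cells. Both mouse replicates were C57BL/6 embryonic stem cells. All groups carried the same kind of lentivirus, with a short barcode and a GFP driven by CAGGS, a broadly active promoter, and GFP-positive cells were sorted before capture. Human replicate 1 and mouse replicate 1 were 1 mixed library whose counts were deposited per species, so there were 3 libraries in 4 parts and n = 2 parts for each species. The human parts came from different lines, and nothing in the labels says that the mouse parts came from separate cultures. With n = 2 parts for each species, p-values speak for these parts only. For levels between species they measure the spread between parts. For changes between cell groups they measure how far such changes vary between parts, pooled over both species. Each human line is 1 part, and a line cannot be told apart from its library.

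The kinetochore is the protein assembly that joins a centromere to spindle microtubules during cell division. An inner layer marks the centromere throughout the cell cycle, an outer layer binds microtubules, and the spindle checkpoint delays separation of the chromatids until every kinetochore is attached. In the developing neural tube, SOX2-positive progenitors divide, NEUROG2 marks cells that are entering neuronal differentiation, and STMN2 marks young neurons, which no longer divide.

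Cells were placed in 4 groups after each was thinned at random to 7000 UMIs (unique transcript counts), so that every cell was searched at the same depth. Neurons had at least 3 STMN2 UMIs and no SOX2 UMI. NEUROG2-positive cells had at least 1 NEUROG2 UMI and fewer than 3 STMN2 UMIs. Progenitors had SOX2, no NEUROG2 and fewer than 3 STMN2 UMIs, and were split into TOP2A-positive cells and cells without a TOP2A UMI (TOP2A-zero). TOP2A encodes the DNA topoisomerase that untangles replicated chromosomes, and it is itself 1 of the 49 genes. The groups held between 173 cells (neurons of mouse replicate 1) and 554 cells (TOP2A-positive progenitors of mouse replicate 2). All UMIs of a group's cells were summed in each part, and levels are a gene's UMIs per 1000000 UMIs of that sum (CPM).

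Human replicates 1 and 2 held 28577630 and 32803173 UMIs in 2407 and 2044 cells, against 38166382 and 83969715 UMIs in 1881 and 2783 cells of mouse replicates 1 and 2. Of 4228 barcodes in the mixed library, 60 (1.42%) appeared in both species' tables and were left out. All 8 motor neuron markers (among them ISL1, MNX1 and CHAT) were present in the neurons of all 4 parts, with summed levels of 496 to 1076 CPM in human and 670 to 1407 CPM in mouse. Endothelial markers summed to at most 1.60 CPM in any group. In TOP2A-positive progenitors 8 mesenchyme or neural crest markers summed to 23.1 and 397 CPM in human replicates 1 and 2 and to 5.04 and 17.5 CPM in mouse replicates 1 and 2. In TOP2A-zero progenitors they summed to 33.1 and 497 CPM in human, with 6 and 8 markers detected, and to 7.43 and 16.8 CPM in mouse, with 7 detected in each. The 5 epithelium or endoderm markers (led by KRT8, KRT18 and EPCAM) summed to 88.8 and 108 CPM in human TOP2A-positive progenitors and to 127 and 295 CPM in human TOP2A-zero progenitors. In mouse they summed to 9.77 and 57.2 CPM in TOP2A-positive and to 7.26 and 100.1 CPM in TOP2A-zero progenitors. Both lists were thus higher in TOP2A-zero cells of both human parts. The part of these cells in the progenitor results below was not tested.

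**Figure D1:**
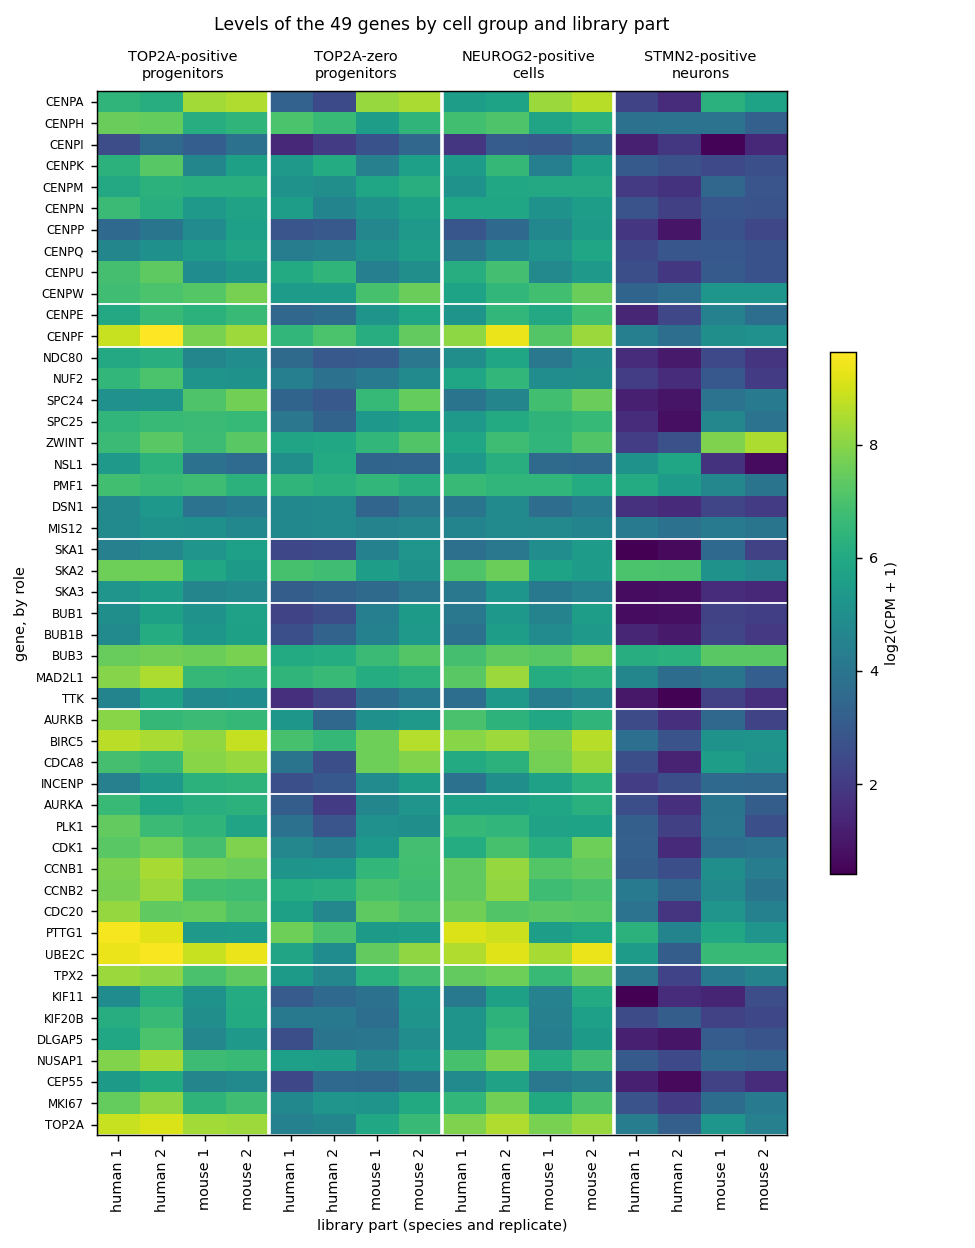
Levels of the 49 genes as log2(CPM + 1) (colour), with genes in rows by role and the 16 sums (4 cell groups of 4 library parts) in columns. Most rows darken in neurons of both species, whereas ZWINT is brightest in mouse neurons, at 229 and 363 CPM, and NSL1 stays bright in human neurons, at 33.3 and 56.5 CPM.

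In neurons, 41 of the 48 genes other than TOP2A were below 25% of their TOP2A-positive progenitor level in at least 1 part of each species. Their median level in neurons was 4.53% and 2.25% of the progenitor level in human replicates 1 and 2, and 15.7% and 9.91% in mouse replicates 1 and 2. TOP2A itself was at 3.96% and 1.47% in human neurons and at 11.5% and 6.68% in mouse neurons. Neurons with 3 to 9 STMN2 UMIs were 52 of 293 and 31 of 311 in human replicates 1 and 2. They were 84 of 173 and 63 of 434 in mouse replicates 1 and 2. In neurons with at least 10 STMN2 UMIs, TOP2A was at 0.874% and 0.738% in human and at 0.950% and 2.69% in mouse. The part of neurons with little STMN2 in the higher mouse values was not tested. Over 6614 genes with at least 5 CPM in TOP2A-positive progenitors of every part, the median neuron level was 98.1% and 92.1% in human and 103% and 98.9% in mouse. The low level of these genes in neurons is part of how the set was put together.

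The remaining 7 genes were at or above 25% in both parts of at least 1 species. NSL1 and PMF1 were so in human neurons only, ZWINT and PTTG1 in mouse neurons only, and MIS12, SKA2 and BUB3 in both. Over the 6614 genes, 1.13% passed this threshold in human only, 1.07% in mouse only and 88.7% in both. Nearest above it, BUB3 stood at 39.1% and 39.0% in human replicates 1 and 2, and MIS12 at 40.9% and PMF1 at 45.0% in human replicate 2. Just outside, 6 genes passed 25% in mouse replicate 1 and not in mouse replicate 2: DLGAP5 at 30.9% and 14.9%, SKA1 at 29.8% and 7.48%, DSN1 at 27.9% and 17.97%, CENPE at 25.95% and 12.3%, CENPW at 25.5% and 17.2%, and CENPU at 25.03% and 14.8%. CENPA was at 23.9% and 14.2% and PMF1 at 22.3% and 18.1% in mouse replicates 1 and 2. CENPI, at 25.7% and 24.97% in human replicates 1 and 2, rested on 4 and 15 UMIs in neurons. The classes depended on the reference. Against TOP2A-zero progenitors, of the 4 genes kept in 1 species, only ZWINT stayed in its class (human 5.99% and 9.13%, mouse 252% and 261%). NSL1 (25.5%) and PMF1 (26.8%) then passed 25% in mouse replicate 1, and PTTG1 (41.4%) in human replicate 1. Other genes entered a class, among them CENPI in human only (73.5% and 89.7%) and SPC25 in mouse only (63.0% and 27.8%). CENPI had only 9 and 17 UMIs in human TOP2A-zero progenitors. The proliferation gene MKI67 also entered mouse only (33.1% and 26.6%, human 23.4% and 8.56%). UBE2C passed 25% in both species (human 80.3% and 26.7%, mouse 58.5% and 36.7%). At 50% of TOP2A-positive progenitors BUB3 was above the threshold in mouse only (82.6% and 71.6%), and MIS12 and PMF1 fell below it in human replicate 2. A threshold of 10% instead gave 18 genes kept in 1 species only, against 4 at the settings used. Letting a cell count as a neuron with 1 STMN2 UMI gave 13. Without mouse replicate 2 the count was 10. No share of all genes is given at these other settings, so the counts cannot be set against one.

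**Figure D2:**
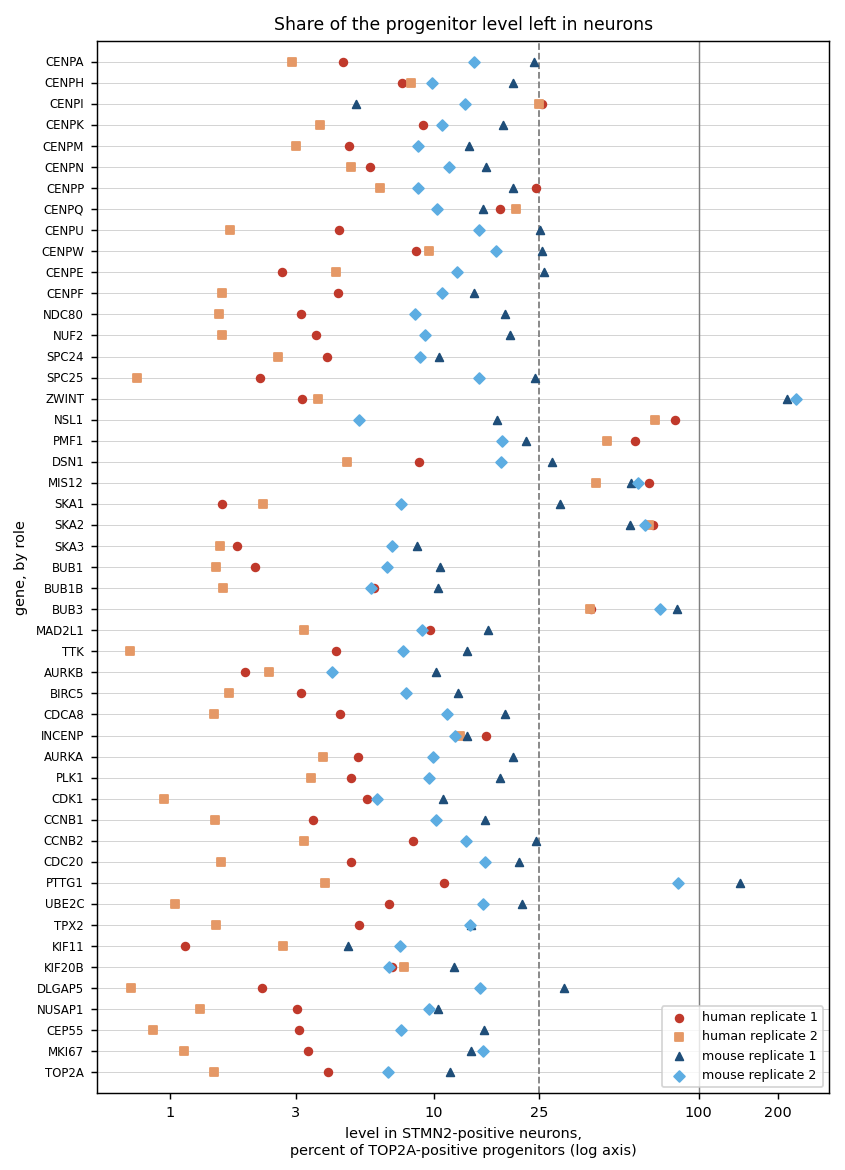
Level of each of the 49 genes in STMN2-positive neurons as a percent of its level in TOP2A-positive progenitors (log axis), 1 point for each library part; the dashed line is at 25% and the solid line at 100%. ZWINT lies near 3% in both human parts and above 200% in both mouse parts, and for most other genes the mouse points lie to the right of the human ones.

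ZWINT encodes an outer kinetochore protein that helps to recruit the ROD-ZW10-Zwilch complex, and in rat its product was also described as a partner of the synaptic protein SNAP25. The human gene spans chr10:56357227-56361273 (GRCh38.p14, RefSeq) and the mouse gene chr10:72654845-72674964 on the plus strand (GRCm38, GENCODE). Human neurons had 3.26 and 5.51 CPM of ZWINT in replicates 1 and 2, against 103 and 152 CPM in human TOP2A-positive progenitors. Mouse neurons had 229 and 363 CPM in replicates 1 and 2, against 106 and 155 CPM in mouse TOP2A-positive progenitors. Neurons were thus the lowest of the 4 groups in both human parts and the highest in both mouse parts. Relative to TOP2A-positive progenitors the neuron level was 3.18% and 3.63% in human and 217% and 234% in mouse.

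ZWINT levels overlapped between species in TOP2A-positive progenitors and NEUROG2-positive cells, and did not in TOP2A-zero progenitors. In TOP2A-zero progenitors ZWINT was at 54.4 and 60.3 CPM in the human parts and at 90.6 and 139 CPM in the mouse parts. In NEUROG2-positive cells it was at 55.7 and 107 CPM in the human parts and at 87.8 and 139 CPM in the mouse parts. Human against mouse, the log2 difference was -0.19 ± 0.31 in TOP2A-positive progenitors, -1.004 ± 0.37 in TOP2A-zero progenitors and -0.61 ± 0.36 in NEUROG2-positive cells (SE, n = 2 parts each), and none passed edgeR's quasi-likelihood test (adjusted p = 0.67, 0.083 and 0.23). These intervals are wide, and they do not show equal levels.

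The ZWINT pattern followed the amount of STMN2 within SOX2-negative cells. In mouse replicate 2 ZWINT was at 145, 169, 359 and 486 CPM in cells with 1 to 2, 3 to 9, 10 to 29 and 30 or more STMN2 UMIs (71, 63, 295 and 76 cells). In mouse replicate 1 it was at 111, 178 and 276 CPM in the first 3 of these ranges, and the last held 1 cell. Over the same ranges TOP2A was at 246, 108, 10.3 and 1.89 CPM in mouse replicate 2. The mouse cells richest in STMN2 thus had the most ZWINT and the least TOP2A.

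In human cells both genes were lowest where STMN2 was high. ZWINT was at 33.1, 15.4, 0 and 0.843 CPM over the 4 ranges in human replicate 1 and at 52.7, 40.2, 2.52 and 1.18 CPM in human replicate 2. The 241 human replicate 1 neurons with 10 or more STMN2 UMIs held 1 ZWINT UMI in all. TOP2A was at 116, 78.6, 3.86 and 4.22 CPM in human replicate 1.

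Single cells gave the same picture at 7000 UMIs per cell. A ZWINT UMI was seen in 1.71% (95% exact binomial interval 0.556 to 3.94) and 1.61% (0.524 to 3.71) of neurons in human replicates 1 and 2, and in 65.9% (58.3 to 72.9) and 82.0% (78.1 to 85.5) in mouse replicates 1 and 2. The intervals cover counting error only. A TOP2A UMI, which a neuron should lack, was seen in 3.07% and 2.25% of human neurons and in 6.94% and 4.38% of mouse neurons, and the human ZWINT shares lay below these. In human neurons with 3 to 9 STMN2 UMIs, TOP2A was at 78.6 and 45.9 CPM in replicates 1 and 2. The source of TOP2A transcripts in neurons was not tested. Before thinning, a median human neuron held 9955 UMIs in replicate 1 and 16951 in replicate 2, and a median mouse neuron 13970 and 23083.

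Neurons with neither a TOP2A nor an MKI67 UMI (274 and 293 human, 155 and 334 mouse) had 1.07 and 1.95 CPM of ZWINT in human and 231 and 373 CPM in mouse. Among mouse neurons, those with a UMI of the motor neuron factor ISL1 had 212 and 351 CPM in replicates 1 and 2, against 239 and 372 CPM in those without. High ZWINT in mouse neurons was therefore seen on both sides of the ISL1 split and was as large without cells that carried a TOP2A or MKI67 UMI.

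**Figure D3:**
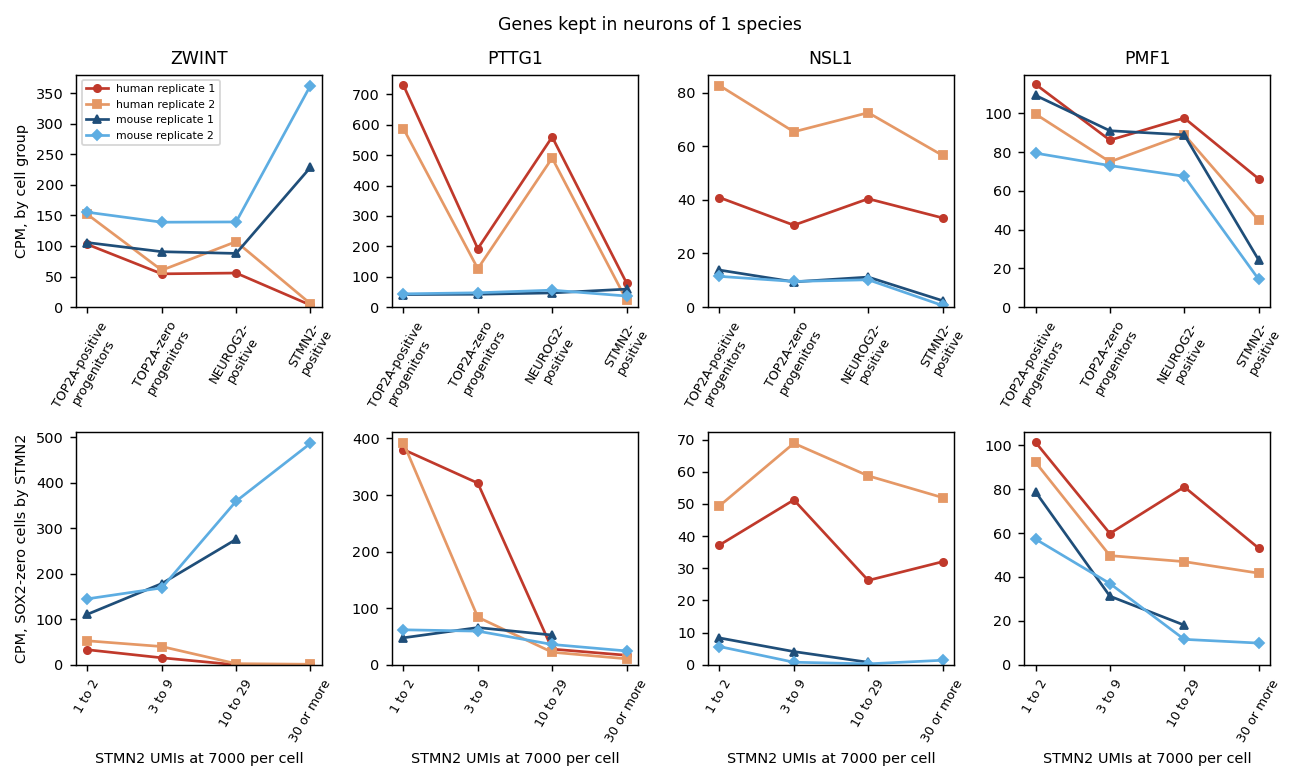
CPM of ZWINT, PTTG1, NSL1 and PMF1 in the 4 cell groups (upper row) and in SOX2-zero cells by their STMN2 UMIs at 7000 UMIs per cell (lower row, ranges with at least 10 cells), 1 line for each library part. In neurons of replicate 2 ZWINT is at 5.51 CPM in human and 363 CPM in mouse, and human PTTG1 is at 22.8 CPM in neurons against 587 CPM in TOP2A-positive progenitors.

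PTTG1 encodes securin, the inhibitor that holds separase inactive until anaphase. The human gene lies at chr5:160421855-160428744 (GRCh38.p14) and the mouse gene at chr11:43420250-43426251 on the minus strand (GRCm38). Human neurons had 79.5 and 22.8 CPM in replicates 1 and 2, against 730.1 and 587 CPM in human TOP2A-positive progenitors. Mouse neurons had 59.1 and 36.5 CPM, against 41.3 and 43.6 CPM in mouse TOP2A-positive progenitors. Over all neurons the species overlapped in PTTG1 level, and in TOP2A-positive progenitors they stood far apart. Mouse PTTG1 was between 36.5 and 59.1 CPM in all 8 mouse sums.

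Neurons with little STMN2 carried much of the human PTTG1 signal: 188 of 244 UMIs in human replicate 1 and 44 of 124 in human replicate 2 came from those with 3 to 9 STMN2 UMIs (52 and 31 cells). In human replicate 1 it was at 380.5, 321, 27.8 and 16.9 CPM over the 4 STMN2 ranges, and in mouse replicate 2 at 61.9, 59.5, 36.0 and 24.5 CPM. In cells with 10 to 29 STMN2 UMIs it was at 27.8 and 22.2 CPM in human replicates 1 and 2, against 52.6 and 36.0 CPM in mouse. In neurons without TOP2A or MKI67 it was at 27.7 and 15.0 CPM in the human parts and at 53.7 and 33.8 CPM in the mouse parts. In both of these subsets the human values lay below the mouse values with no overlap. PTTG2, a near copy of PTTG1 in the human genome, had 26 and 2 UMIs in all cells of human replicates 1 and 2, against 11298 and 10685 UMIs of PTTG1.

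NSL1, PMF1, DSN1 and MIS12 encode the MIS12 complex, which ties the outer kinetochore to the centromere, and they differed in neurons. NSL1 (human chr1:212726153-212791777, mouse chr1:191063012-191086474) was at 33.3 and 56.5 CPM in human neurons, against 40.9 and 82.6 CPM in human TOP2A-positive progenitors. In mouse it was at 2.40 and 0.594 CPM in neurons, from 6 UMIs in each part, against 13.8 and 11.5 CPM in TOP2A-positive progenitors. Human NSL1 was thus kept at 81.4% and 68.4% of the progenitor level, and mouse NSL1, already the lower in progenitors, at 17.4% and 5.19%.

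PMF1 (human chr1:156213007-156240042, mouse chr3:88394143-88410331) was at 66.2 and 44.8 CPM in human neurons, against 115 and 99.6 CPM in human TOP2A-positive progenitors. In mouse it was at 24.4 and 14.4 CPM in neurons, against 109 and 79.4 CPM in TOP2A-positive progenitors. Unlike NSL1, PMF1 levels overlapped between the species in TOP2A-positive progenitors. The mouse neuron values, at 22.3% and 18.1% of TOP2A-positive progenitors, lay under the threshold. A read-through gene that contains PMF1, PMF1-BGLAP, had 2 and 18 UMIs in human replicates 1 and 2, against 2570 and 2550 UMIs of PMF1.

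MIS12 was at 17.9 and 13.6 CPM in human neurons and at 17.6 and 15.0 CPM in mouse neurons, or 65.0% and 40.9% of the TOP2A-positive progenitor level in human and 55.3% and 59.0% in mouse. DSN1 was lower, at 2.28 and 1.84 CPM in human neurons and 3.99 and 3.07 CPM in mouse neurons. Within this 4-protein complex, MIS12 was therefore retained in both species, NSL1 and PMF1 above the threshold in human only, and DSN1 in both parts of neither.

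SKA2 encodes a subunit of the SKA complex, which holds kinetochores on shrinking microtubules. It was at 128 and 124 CPM in human neurons and at 33.5 and 26.6 CPM in mouse neurons, or 67.3% and 65.0% of TOP2A-positive progenitors in human and 55.0% and 62.6% in mouse. Its partners SKA1 and SKA3 were at no more than 0.734 CPM in human neurons and no more than 10.8 CPM in mouse neurons. BUB3, the checkpoint protein that carries BUB1 and BUB1B to kinetochores, was at 69.4 and 77.1 CPM in human neurons and at 153 and 155 CPM in mouse neurons. BUB1 and BUB1B themselves were at 0.652 to 1.63 CPM in human neurons and at 2.87 to 3.99 CPM in mouse neurons. SKA2 and BUB3 were thus above the 25% threshold in both species, and these partners in both parts of neither.

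MKI67, the proliferation antigen that coats mitotic chromosomes, was at 5.87 and 3.12 CPM in human neurons and at 11.6 and 16.9 CPM in mouse neurons, against 175 and 274 CPM in human TOP2A-positive progenitors and 83.9 and 111 CPM in mouse ones. CDK1, the kinase that drives entry into mitosis, was at 8.48 and 1.84 CPM in human neurons and at 12.8 and 14.1 CPM in mouse neurons, against 153 and 193 CPM in human TOP2A-positive progenitors and 118 and 231 CPM in mouse ones. For both genes all 4 neuron values lay far under the progenitor values of their own part.

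By role, the outer kinetochore held the widest spread in neurons, with SPC25 lowest at 2.20% and 0.752% in human and ZWINT highest at 217% and 234% in mouse. All 10 genes of the constitutive centromere network, which stays at centromeres through the cell cycle, were low as transcripts in neurons, with medians of 8.04% and 5.54% in human and 19.0% and 11.0% in mouse. The 4 genes of the chromosomal passenger complex, the Aurora B kinase module, had medians of 3.77% and 2.03% in human and 12.9% and 9.50% in mouse.

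Other genes of cell division, not among the 49, were described from lists chosen with earlier results known. Of 46 further mitosis genes measured in all parts, 7 were kept in neurons of both species (CENPB, CENPC, CENPT, CENPX, ZW10, MAD1L1 and MAD2L1BP), ZWILCH in human only, and 4 (CENPO, HJURP, RACGAP1 and NCAPD2) in mouse only, where 88.7%, 1.13% and 1.07% of the 6614 genes fell in these 3 classes. Their median neuron level was 6.65% and 6.24% in human, above the 4.84% and 2.80% of the 48 genes. In mouse it was 16.6% and 11.5%, near the 17.97% and 10.5% of the 48 genes. All 24 genes of the anaphase-promoting complex and cohesin were kept in both species, near the 88.7% of all genes, at medians of 71.3% and 61.2% in human and 77.3% and 81.1% in mouse. Neither list was held to the floor of 5 CPM that the 6614 genes had to reach, so these shares stand side by side at unlike filters.

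Among progenitors, a TOP2A UMI was seen at 7000 UMIs in 46.7% and 45.0% of SOX2-positive cells in human replicates 1 and 2, and in 56.1% and 63.5% of those of mouse replicates 1 and 2. Averages were 45.9% ± 1.24 in human and 59.8% ± 5.22 in mouse (SD, n = 2 parts each). The difference of -13.9 percentage points was -9.35 inside the mixed library and -18.5 between replicates 2 of the species. A two-sided exact permutation test gave p = 0.333, the smallest p that 2 against 2 parts allow.

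TOP2A-positive progenitors had higher levels of most of these genes than TOP2A-zero progenitors in human, and less so in mouse. The split uses a gene of the set that is transcribed with the others, so the direction was built in and is a description. In human, 41 of 48 genes passed edgeR's quasi-likelihood test at adjusted p under 0.05 as higher and 0 as lower, where 2.48% of all genes tested were higher and 0.461% lower. In mouse, 2 of 48 passed as higher (INCENP, log2 fold change 1.22 ± 0.19, and NUSAP1, 1.76 ± 0.25), where 0.0683% of all genes were higher. The median log2 change was 2.32 in human and 0.54 in mouse, against -0.04 and 0.01 over all genes tested. With cells grouped by all their UMIs in place of 7000, 42 genes were higher in human and 27 in mouse, and 0 lower. Of all genes, 2.61% were then higher and 0.334% lower in human, and 1.79% higher and 2.01% lower in mouse. Thinning to 7000 UMIs with another random seed gave 11 genes in mouse, so the mouse count depends on how the cells were split.

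The TOP2A-zero groups of the species were not equally free of dividing cells. Counting all their UMIs, 15.9% and 19.3% of TOP2A-zero progenitors had a TOP2A UMI in human replicates 1 and 2, and 36.9% and 70.8% in mouse replicates 1 and 2. At 7000 UMIs an MKI67 UMI was seen in 11.0% and 14.5% of them in human and in 21.7% and 31.3% in mouse. Median depth in this group was 12499 and 18438 UMIs in human and 17638 and 33193 UMIs in mouse. The part of depth and of the remaining TOP2A transcripts in the species difference was not tested.

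The human change was larger than the mouse change for 17 of 48 genes and smaller for 0 (adjusted p under 0.05), where 0.478% of all genes had a larger and 0.0256% a smaller human change. The 4 largest differences were CENPA (3.39 ± 0.34), CDCA8 (3.09 ± 0.45), TTK (2.76 ± 0.43) and DLGAP5 (2.71 ± 0.33, all log2, SE). With cells grouped by all UMIs the count was 13 (0.446% of all genes, and 0.0171% with a smaller human change), and these 4 differences were 3.95, 3.21, 2.95 and 3.45. The count was 5 without human replicate 1, 0 without human replicate 2 and 6 without mouse replicate 2. It was also 0 when the library part was left out of the fit.

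**Figure D4:**
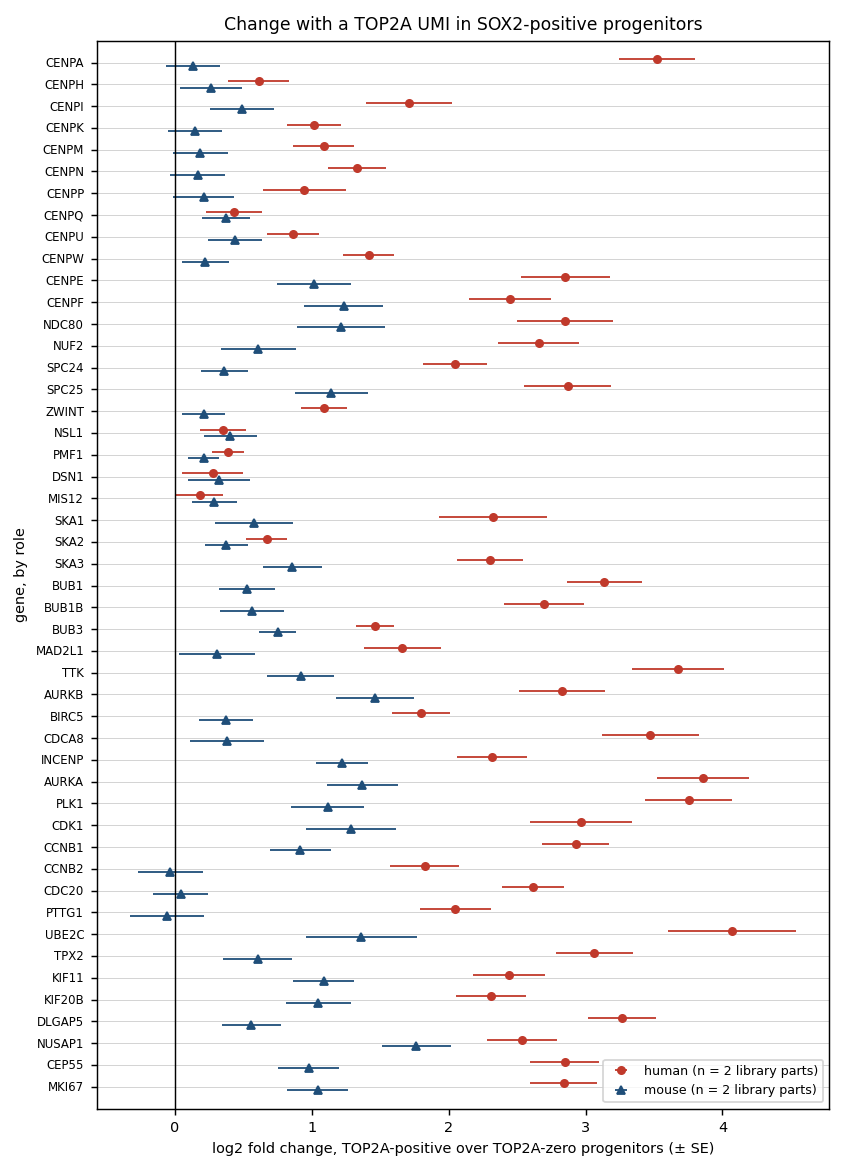
Log2 fold change of 48 genes, TOP2A-positive over TOP2A-zero SOX2-positive progenitors, in human (circles) and mouse (triangles), with bars of 1 SE. Human values lie to the right of mouse values for nearly all genes, with the widest gap at CENPA, while NSL1, DSN1 and MIS12 lie together.

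CENPA, the histone H3 variant that marks centromeres, was at 86.4 and 69.6 CPM in human TOP2A-positive progenitors and at 8.9 and 4.5 CPM in human TOP2A-zero progenitors. In mouse it was at 325 and 371 CPM in TOP2A-positive and at 296 and 348 CPM in TOP2A-zero progenitors. Human TOP2A-positive values lay far above human TOP2A-zero values, a log2 change of 3.52 ± 0.28, whereas the mouse change was 0.13 ± 0.20 and the mouse groups overlapped.

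The 8 mitotic kinases, cyclins and anaphase regulators differed among themselves in mouse, with a median log2 change of 1.02 and 5 of 8 at an unadjusted p under 0.05, and 0 of 8 passing edgeR's quasi-likelihood test after adjustment. AURKA, UBE2C, CDK1, PLK1 and CCNB1 were those 5, with changes of 1.37, 1.36, 1.29, 1.11 and 0.92. The other 3 had mouse changes of 0.04 ± 0.20 for CDC20, the activator of the anaphase-promoting complex, -0.04 ± 0.24 for cyclin B2 (CCNB2) and -0.06 ± 0.27 for PTTG1. In human these changes were 2.62 ± 0.23, 1.82 ± 0.25 and 2.05 ± 0.26. With cells grouped by all UMIs the mouse values of these 3 were 0.42 ± 0.25, 0.09 ± 0.25 and -0.05 ± 0.29, and that of CENPA was 0.34 ± 0.21. In the same grouping AURKA, the centrosomal kinase, changed by 2.29 ± 0.22, CDK1 by 2.22 ± 0.35, PLK1 by 1.84 ± 0.28, UBE2C by 1.82 ± 0.35 and CCNB1 by 1.37 ± 0.26 in mouse. The contrast within these 8 genes was drawn after their values were seen.

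CDCA8 encodes borealin, a subunit of the chromosomal passenger complex. It was at 118 and 99.6 CPM in human TOP2A-positive and 14.4 and 5.2 CPM in human TOP2A-zero progenitors, against 254 and 292 CPM in mouse TOP2A-positive and 190.2 and 235 CPM in mouse TOP2A-zero progenitors. TTK, the kinase at the head of the spindle checkpoint, was at 22.9 and 51.7 CPM in human TOP2A-positive and 2.2 and 3.6 CPM in human TOP2A-zero progenitors. In mouse TTK was at 26.9 and 28.4 CPM in TOP2A-positive and 11.7 and 17.9 CPM in TOP2A-zero progenitors. For TTK the species overlapped in TOP2A-positive cells and did not in TOP2A-zero cells.

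By role in human, the 8 mitotic kinases, cyclins and anaphase regulators, the 5 checkpoint genes and the 4 passenger complex genes were all higher in TOP2A-positive cells. Of the 9 outer kinetochore genes 5 were higher, and NSL1, PMF1, DSN1 and MIS12 did not pass, with log2 changes of 0.35, 0.39, 0.28 and 0.18. Of the 10 centromere network genes 7 were higher, and CENPH, CENPP and CENPQ did not pass, at 0.61, 0.94 and 0.43. Among the 46 other mitosis genes, 38 were higher in human and 1 in mouse.

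Whether the set stood higher in NEUROG2-positive cells depended on the progenitors they were set against. NEUROG2-positive cells still held many dividing cells: a TOP2A UMI was seen in 34.5% and 48.6% of them in human replicates 1 and 2 and in 44.7% and 58.4% in mouse replicates 1 and 2. Against all SOX2-positive progenitors, TOP2A-positive and TOP2A-zero together, 0 of 48 genes passed edgeR's quasi-likelihood test in either species, where 0.774% of all genes were higher and 0.32% lower in human, and 1.31% higher and 0.337% lower in mouse. The median log2 change was 0.10 in human and -0.02 in mouse, and 1 human and 0 mouse genes had an unadjusted p under 0.05. Between TOP2A-zero cells of both kinds, 0 of 48 passed again, with medians of -0.37 in human and -0.39 in mouse, where 2.02% of all genes were higher and 1.4% lower in human, and 2.97% higher and 1.01% lower in mouse. There 5 human and 15 mouse genes had an unadjusted p under 0.05. Both comparisons were added after the data were seen.

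Set against TOP2A-zero progenitors only, NEUROG2-positive cells were higher for 33 of 48 genes in human and for 5 of 48 in mouse, and lower for 0. Of all genes, 2.43% were higher and 1.55% lower in human, and 1.55% higher and 0.905% lower in mouse. The largest human changes were UBE2C (3.57 ± 0.46), AURKA (3.30 ± 0.34), PLK1 (3.28 ± 0.32) and TTK (3.15 ± 0.34). In mouse the genes were NUSAP1 (1.53 ± 0.25), AURKA (1.16 ± 0.26), MKI67 (0.98 ± 0.22), INCENP (0.82 ± 0.19) and BUB3 (0.56 ± 0.13). The human change exceeded the mouse change for 10 of 48 genes and was smaller for 0 (0.393% and 0.214% of all genes), led by CENPA (2.78 ± 0.35), CDCA8 (2.63 ± 0.45), TTK (2.59 ± 0.43) and PLK1 (2.52 ± 0.41). Only 1 side of this comparison had TOP2A-positive cells removed, and with either matched choice above the difference between species also passed for 0 of 48 genes, and 0 had an unadjusted p under 0.05. Over all genes, 0.0421% had a larger and 0.0337% a smaller human change against all SOX2-positive progenitors, and 0.0949% a larger and 0.25% a smaller one between TOP2A-zero cells. Without human replicate 2 the human count was 4, and leaving out any 1 part gave 0 to 3 in mouse. The species difference passed for 0 genes without either human replicate and for 7 without mouse replicate 2.

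**Figure D5:**
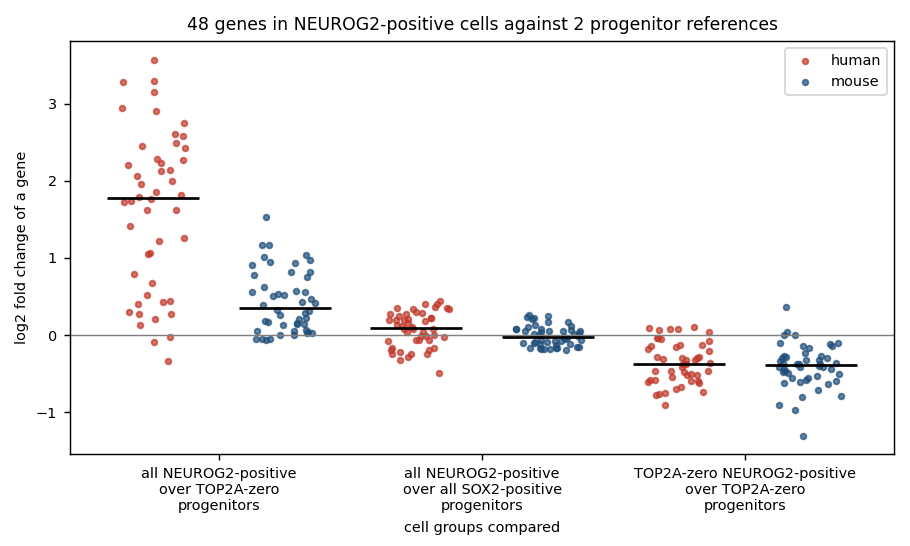
Log2 fold change of 48 genes (points; line, median) in NEUROG2-positive cells over TOP2A-zero progenitors, over all SOX2-positive progenitors, and between TOP2A-zero cells only, for human and mouse. The human median is 1.78 in the first comparison and 0.10 and -0.37 in the others.

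The level of UBE2C, the ubiquitin-conjugating enzyme of the anaphase-promoting complex, shows the range. It was at 369 and 577 CPM in human NEUROG2-positive cells, against 650 and 738 CPM in TOP2A-positive and 54.8 and 28.9 CPM in TOP2A-zero progenitors. In mouse it was at 345 and 650 CPM in NEUROG2-positive cells, against 461 and 655 CPM in TOP2A-positive and 170.1 and 274 CPM in TOP2A-zero progenitors. NEUROG2-positive cells lay between the progenitor groups in every part. Over the 48 genes their median level was 57.0% and 78.7% of TOP2A-positive progenitors in human and 80.4% and 92.3% in mouse.

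PLK1, a kinase of centrosome and spindle assembly, was at 93.5 and 88.8 CPM in human NEUROG2-positive cells and 13.6 and 6.1 CPM in human TOP2A-zero progenitors. AURKA was at 50.7 and 49.9 CPM in human NEUROG2-positive cells and 7.7 and 3.1 CPM in human TOP2A-zero progenitors. In mouse AURKA was at 56.6 and 76.6 CPM in NEUROG2-positive cells and 24.1 and 35.9 CPM in TOP2A-zero progenitors. NEUROG2-positive values lay above TOP2A-zero values in each of these pairs.

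NUSAP1, a spindle microtubule protein, was at 69.3 and 110 CPM in mouse NEUROG2-positive cells and 23.4 and 38.8 CPM in mouse TOP2A-zero progenitors. INCENP, the scaffold of the passenger complex, was at 50.2 and 78.2 CPM and 28.2 and 45.1 CPM in the same 2 mouse groups.

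Human and mouse levels were compared within each cell group, with 4 sums in each fit. The tables of the 2 replicates of a species list different sets of genes, and species cannot be told apart from annotation, cell line and sampling schedule in these levels. In TOP2A-positive progenitors 13 of 48 genes were higher in human and 5 lower (16.4% and 12.8% of all genes). In TOP2A-zero progenitors 4 were higher and 17 lower (15.9% and 9.71% of all genes). In NEUROG2-positive cells 6 were higher and 8 lower (17.6% and 12.6% of all genes). The median log2 difference of the 48 genes was 0.31, -0.998 and 0.14 in these 3 groups, against -0.03, 0.07 and 0.01 over all genes.

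The count in TOP2A-positive progenitors was 2 without either mouse replicate. In TOP2A-zero progenitors it was 5 without either human replicate, 13 without mouse replicate 1 and 3 without mouse replicate 2. In NEUROG2-positive cells it was 8 without mouse replicate 1 and 5 without mouse replicate 2.

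PTTG1 was higher in human in all 3 groups, by a log2 difference of 3.83 ± 0.40 in TOP2A-positive progenitors, 1.87 ± 0.45 in TOP2A-zero progenitors and 3.28 ± 0.37 in NEUROG2-positive cells. In TOP2A-positive progenitors it was 4.14 inside the mixed library and 3.75 between replicates 2 of the species. NSL1 was higher by 2.08 ± 0.40, 2.24 ± 0.44 and 2.25 ± 0.39 in the 3 groups, and SKA2 by 1.72 ± 0.38, 1.52 ± 0.42 and 1.56 ± 0.33. SKA2 was at 191 CPM in both human parts, against 61.0 and 42.6 CPM in mouse, in TOP2A-positive progenitors. These genes pointed the same way inside the mixed library and outside it.

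CENPU, a centromere network protein that recruits PLK1, was at 120 and 162 CPM in human TOP2A-positive progenitors, against 28.7 and 38.1 CPM in mouse, a log2 difference of 1.92 ± 0.31. TOP2A-zero progenitors had 65.6 and 86.3 CPM of CENPU in human, against 19.98 and 30.1 CPM in mouse. MAD2L1, the checkpoint protein that binds CDC20, was at 155 and 304 CPM in human NEUROG2-positive cells, against 69.2 and 79.5 CPM in mouse, a log2 difference of 1.48 ± 0.34.

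SPC24, a subunit of the NDC80 complex, was lower in human in all 3 groups, by log2 differences of -2.42 ± 0.34 in TOP2A-positive progenitors, -4.01 ± 0.50 in TOP2A-zero progenitors and -3.07 ± 0.37 in NEUROG2-positive cells. It was at 33.0 and 35.6 CPM in human TOP2A-positive progenitors, against 134 and 204 CPM in mouse. Its direct partner SPC25 was at 88.8 and 97.7 CPM in the same human cells, against 103 and 95.6 CPM in mouse, whereas the other subunits were higher in human, by log2 differences of 1.19 ± 0.31 for NDC80 and 1.504 ± 0.32 for NUF2 (edgeR's quasi-likelihood test, adjusted p = 0.031 and 0.016). These partners were looked up after the values of SPC24 were seen. In TOP2A-positive progenitors the species difference thus had both signs within this 4-protein complex.

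CENPA was lower in human by -2.28 ± 0.36 in TOP2A-positive progenitors, -5.54 ± 0.58 in TOP2A-zero progenitors and -2.92 ± 0.33 in NEUROG2-positive cells, and by -1.91, -5.06 and -2.71 within the mixed library. CDCA8 was lower by -4.36 ± 0.64 in TOP2A-zero progenitors and -1.95 ± 0.33 in NEUROG2-positive cells.

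CENPP, another centromere network protein, was at 10.7 and 14.8 CPM in human TOP2A-positive progenitors, against 28.2 and 47.8 CPM in mouse. INCENP was at 20.7 and 41.1 CPM in the same human cells, against 80.7 and 84.9 CPM in mouse. BUB1, the checkpoint kinase, was at 3.9 and 5.1 CPM in human TOP2A-zero progenitors, against 19.98 and 41.7 CPM in mouse, and at 31.0 and 48.9 CPM in human TOP2A-positive progenitors, against 34.3 and 50.6 CPM in mouse. For BUB1 the species overlapped in TOP2A-positive cells and did not in TOP2A-zero cells, where human cells also carried less TOP2A (21.3 and 24.0 CPM) than mouse cells (59.3 and 96.5 CPM).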

How the data were processed

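Per the submitters' processing notes, Cell Ranger 3.1.0 was run with mm10 and hg38. The deposited tables hold whole-number UMI counts per gene and cell, unnormalized. Cells with at least 1000 UMIs, at least 500 genes and at most 10% mitochondrial UMIs were kept, scrublet doublets (13 and 24 human, 5 and 32 mouse cells) and barcodes shared within the mixed library were removed, and 2321 and 1805 human and 1811 and 2674 mouse cells remained. Groups were assigned on counts thinned to 7000 UMIs, and 1927, 1461, 1744 and 2521 of these were deep enough. SOX2-positive cells with 3 or more STMN2 UMIs (59, 67, 37 and 16) were left out. Raw counts were summed per part and group.

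Sums were tested with edgeR 4.0.16 (TMM, quasi-likelihood, Benjamini-Hochberg over all genes). Comparisons between cell groups used all 16 sums with the library part as a block, since sums of 1 part share its library; comparisons between species used the 4 sums of a group. In data simulated for the human NEUROG2 comparison, 62% of log2 changes of 1 and 95% of changes of 2 were recovered, and for its difference between species 33% and 83%. DESeq2 1.42.0 was an alternative. The rule for genes named with values took those kept in neurons, the 4 largest called changes in each direction, and ZWINT, TOP2A, MKI67 and CDK1. Complex partners, genes near the 25% threshold, genes that did not pass and the 8 kinases, cyclins and anaphase regulators were named beyond it, after their values were seen. The 49 genes and all lists were chosen with earlier results of these data known. Gene coordinates came from RefSeq GRCh38.p14 and GENCODE GRCm38.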

Additional observations from a re-analysis of the deposited data

Results flagged for a closer look

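The human and mouse changes below differed by a test of the difference itself. The change in TOP2A-positive over TOP2A-zero progenitors was larger in human than in mouse by 3.39 (log2) for CENPA, 3.09 for CDCA8, 2.76 for TTK and 2.71 for DLGAP5. The change in NEUROG2-positive cells over TOP2A-zero progenitors was larger in human by 2.78 for CENPA, 2.63 for CDCA8, 2.59 for TTK and 2.52 for PLK1. Both sets share the TOP2A-zero progenitors, in which mouse cells had more TOP2A. The second set passed with TOP2A-positive cells removed from the progenitors alone, and with neither matched choice described above.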

How the results depend on the processing

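TOP2A-positive against TOP2A-zero progenitors gave 41 genes in human, 28 to 41 leaving out 1 part and 21 with no replicate block. In mouse it gave 2, but 27 with all UMIs, 11 with another thinning seed, 5 with doublets kept, 5 with no filter on low counts, 1 with an STMN2 threshold of 1, 0 to 1 leaving out 1 part and 0 with no block. The species difference gave 17, 0 to 20 leaving out 1 part and 0 with no block.

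NEUROG2-positive cells gave 33 genes in human, 4 to 34 leaving out 1 part and 1 with no block; in mouse 5, 22 with all UMIs, 9 with another seed, 8 with no filter, 3 with DESeq2, 2 at 4000 UMIs, 2 with an STMN2 threshold of 1, 0 to 3 leaving out 1 part and 0 with no block; and for the difference 10, 17 with no filter, 0 to 14 leaving out 1 part and 0 with no block. All 3 fell to 0 with all SOX2-positive progenitors, and to 0 between TOP2A-zero cells. In the last, signs turned for UBE2C (-0.46), PLK1 (-0.58) and TTK (-0.13) in human, for NUSAP1 (-0.47), AURKA (-0.29), MKI67 (-0.14) and INCENP (-0.62) in mouse, and for CENPA (-0.28), CDCA8 (-0.27) and PLK1 (-0.078) in the difference; mouse INCENP was -0.045 with all SOX2-positive progenitors.

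Human against mouse gave 18 genes in TOP2A-positive progenitors (2 to 16 leaving out 1 part), 21 in TOP2A-zero progenitors (3 to 13) and 14 in NEUROG2-positive cells (5 to 15). No paired analysis was possible for these because only the first replicates share a library. Leaving out a part leaves 1 sum for a species, assumed to vary like the others. Where no share of all genes is given for an alternative, its count cannot be set against one. The count kept in neurons of 1 species was 4, 13 with an STMN2 threshold of 1, 18 at 10% and 4 to 10 leaving out 1 part, with 10 without mouse replicate 2. Of the values for named genes under alternatives, 390 kept direction and side of the threshold, 103 kept direction only and 11 reversed. The cause was not tested. With n = 2 the p-values rest on few residual degrees of freedom.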
